A study of Mus musculus with 7 samples.

Results

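In livers from wild-type (WT) animals and from animals carrying constitutively active AMPK (AMPK-CA), a kinase that senses low energy, the transcription factor HNF4a was mapped by ChIP-seq, and 106 of the 39704 bound regions were assigned to 10 genes of insulin receptor signalling and its FOXO branch. The genes are Insr, Irs1, Irs2, Pik3r1, Akt1, Akt2, Foxo1, Foxo3, Grb10 and Trib1, out of 13644 genes named in the deposited table. Every region carrying one of these names was taken, whatever its distance or annotation, so that a region entered by gene name alone. All 10 genes had at least 1 region.

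There were 3 WT and 3 AMPK-CA libraries, spread over 3 labelled batches with 1 WT and 1 AMPK-CA library apiece. The labels name a Takara and an NEB library kit but not which library had which, so kit and batch cannot be told apart. All mice, WT included, ate a high-fat diet with doxycycline for 14 days. The labels give no age, sex or strain, do not name the AMPK allele or the promoter that drives it, and do not say whether a library came from 1 animal or from pooled animals, so the p-values below measure the spread between these libraries. The tissue is labelled as liver, and the input was not analysed here. Coordinates are those of the deposited table, on mm10. Fewer cells of a type and less binding per cell cannot be told apart in such samples.

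Insulin binds the receptor Insr, which phosphorylates the docking proteins Irs1 and Irs2. These recruit phosphoinositide 3-kinase, whose regulatory subunit is encoded by Pik3r1, and the kinases Akt1 and Akt2 are then activated, with Akt2 the main form in insulin-sensitive tissues. Akt phosphorylates Foxo1 and Foxo3, which leave the nucleus and stop driving gluconeogenic genes in the liver. Grb10 is an adaptor that inhibits the receptor, and Trib1 is a pseudokinase that controls hepatic lipid genes through degradation of C/EBP proteins. HNF4a is a nuclear receptor that keeps hepatocytes differentiated, and FOXO1 works with it at the glucose-6-phosphatase gene.

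The start-site regions of Foxo1, Foxo3, Irs1 and Pik3r1 had the most negative log2 differences between AMPK-CA and WT among the 8 regions within 1 kb of a start, and their promoters are shown for that reason, chosen after these values were seen. The sequences are the 250 bases before the start, from RefSeq's promoter windows on GRCm38.p6, each on the strand of its gene and written 5′ to 3′. Capitals mark CG dinucleotides in the first 4 sequences. An Akt1 promoter window is shown because it holds the only match to a forkhead motif among the 14 windows available for 8 of the genes. Its capitals mark that match.
Foxo1, chr3:52268087-52268336, plus strand: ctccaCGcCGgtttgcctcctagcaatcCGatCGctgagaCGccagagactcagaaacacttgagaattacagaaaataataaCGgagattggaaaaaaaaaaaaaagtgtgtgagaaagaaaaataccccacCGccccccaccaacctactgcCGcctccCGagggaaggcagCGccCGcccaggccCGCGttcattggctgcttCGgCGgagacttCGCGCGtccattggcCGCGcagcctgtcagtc
Foxo3, chr10:42276696-42276945, minus strand: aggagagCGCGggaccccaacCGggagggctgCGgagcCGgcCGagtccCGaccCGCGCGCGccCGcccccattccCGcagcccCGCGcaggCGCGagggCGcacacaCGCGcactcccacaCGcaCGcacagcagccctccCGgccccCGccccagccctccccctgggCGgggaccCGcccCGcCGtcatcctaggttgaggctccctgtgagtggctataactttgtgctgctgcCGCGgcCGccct
Irs1, chr1:82291440-82291689, minus strand: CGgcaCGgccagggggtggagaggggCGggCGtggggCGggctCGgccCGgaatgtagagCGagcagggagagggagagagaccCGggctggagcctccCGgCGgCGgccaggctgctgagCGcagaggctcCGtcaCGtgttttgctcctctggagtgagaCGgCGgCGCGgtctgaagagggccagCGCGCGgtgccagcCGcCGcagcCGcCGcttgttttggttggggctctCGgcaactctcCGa
Pik3r1, chr13:101768218-101768467, minus strand: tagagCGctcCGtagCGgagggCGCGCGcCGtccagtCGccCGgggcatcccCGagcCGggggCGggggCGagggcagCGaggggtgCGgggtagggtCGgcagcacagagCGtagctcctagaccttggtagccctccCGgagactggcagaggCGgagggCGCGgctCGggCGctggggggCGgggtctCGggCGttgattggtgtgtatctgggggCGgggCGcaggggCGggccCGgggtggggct
Akt1, chr12:112674885-112675134, minus strand: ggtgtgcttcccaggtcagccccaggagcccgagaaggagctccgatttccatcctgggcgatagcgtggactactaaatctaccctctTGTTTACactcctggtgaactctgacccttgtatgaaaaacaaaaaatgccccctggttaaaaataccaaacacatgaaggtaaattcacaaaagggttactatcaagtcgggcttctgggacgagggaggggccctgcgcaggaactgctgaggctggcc

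The first 4 promoters hold 20 CG dinucleotides at Foxo1, 31 at Foxo3, 28 at Irs1 and 30 at Pik3r1, against a median of 6 over the 32851 windows in the RefSeq table. The Akt1 window shown holds 7, and a second Akt1 window, at chr12:112674227-112674526, holds 31. The start assigned to the Akt1 promoter region lies in that second window, which has no motif match and overlaps no bound region. Over the 14 windows the number ran from 0 at an Akt2 window to 40 at a Grb10 window, with 34 at Irs2. Of the 14 windows, 7 windows from 7 genes overlapped a bound region assigned to the same gene. On both strands of the 300-base windows, which add 50 bases after the start, the HNF4-type motif CAAAGTCCA occurred in none of the 14 windows and in 0.475% of all windows. With any base at its seventh position, CAAAGTNCA, which also covers the first motif, it occurred in none of the 14 and in 1.41% of all. The forkhead motif GTAAACA, which is part of neither, occurred in 1 of the 14, at Akt1, and in 3.65% of all windows. It lies on the opposite strand of the Akt1 window, from base 90 to base 96, and so reads as its reverse complement in the line above. A match or its absence describes these letters in this window only.

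**Figure D1:**
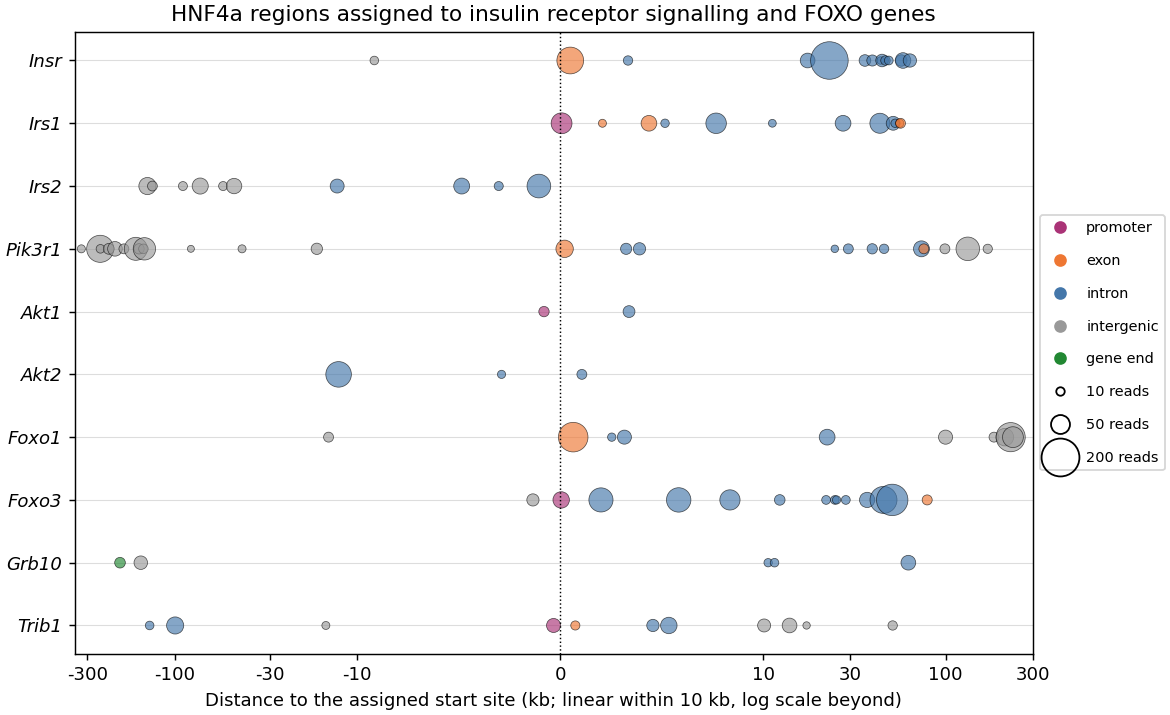
Each circle is a bound region, placed by its distance in kb from the start site the deposited table assigns to it, coloured by annotation, with an area proportional to the mean normalized reads over 6 libraries. The regions of Pik3r1 spread widest, the Insr intron holds the strongest region at 197 normalized reads, and Akt1 has only 2 regions.

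HNF4a regions were dense and distant around these genes. Pik3r1 had 25 regions, a number that 14 of all 13644 genes reached. Insr and Foxo3 had 14 each, Irs1 had 12, Trib1 had 11, and Foxo1 and Irs2 had 10 each. Grb10 had 5, Akt2 had 3 and Akt1 had 2, while the median gene in the table had 2. So 7 of the 10 genes had 10 or more regions, against 3.77% of all genes.

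By annotation, 55 of the 106 regions were intronic, 36 intergenic, 10 exonic, 4 at promoters and 1 at a gene end. The promoter share was 3.77%, against 13.2% over all regions, and the intronic share was 51.9% against 44.9%. The median distance to the assigned start site was 36.7 kb, against 10.9 kb over all regions. Akt1, Akt2, Grb10 and Pik3r1 have more than 1 RefSeq promoter window, so a region far from the assigned start can lie near another start. At most 1 kb from a start were 8 regions, 7.55%, where the whole table had 23.2%, and beyond 50 kb were 41 regions, 38.7%, where the whole table had 19.9%. The median level was close to that of the whole table, with 18.1 normalized reads against 17.4, but 19 of the 106 regions were in the strongest 10% of all regions and 4 in the strongest 1%. These 4 were the intronic regions of Insr and Foxo3, the first exon of Foxo1 and an intergenic region 227.1 kb from Foxo1.

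The normalized reads used here count the reads in a region after the authors' scaling, so they grow with a region's length. Summed over a gene's regions, they ran from 502 to 839 in the 6 libraries for Pik3r1 and from 507 to 766 for Foxo3. The sums ran from 433 to 608 for Insr, from 396 to 553 for Foxo1, from 297 to 390 for Irs1 and from 244 to 333 for Irs2. For the rest they were 203 to 261 for Trib1, 88.1 to 148 for Akt2, 79.6 to 99.4 for Grb10 and 17.5 to 51.4 for Akt1. The order by mean sum was Pik3r1, Foxo3, Insr, Foxo1, Irs1, Irs2, Trib1, Akt2, Grb10 and Akt1. Pik3r1 and Foxo3, Foxo3 and Insr, Insr and Foxo1, and Irs1 and Irs2 did not differ beyond their spread (SD, n = 6). That spread is the larger SD of the pair over all libraries, and it ignores that both genes were measured in the same libraries. Library by library, Irs1 was above Irs2 in 3, and in the other pairs named the first gene was above the second in 5. Foxo1 was above Irs1, Irs2 above Trib1, Trib1 above Akt2, and Grb10 above Akt1 in all 6 libraries, and Akt2 was above Grb10 in 5. Per kb of bound sequence the order was another: 58.2 normalized reads per kb for Akt2 and 58.0 for Insr stood at the top, and 26.4 for Akt1 at the bottom.

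**Figure D2:**
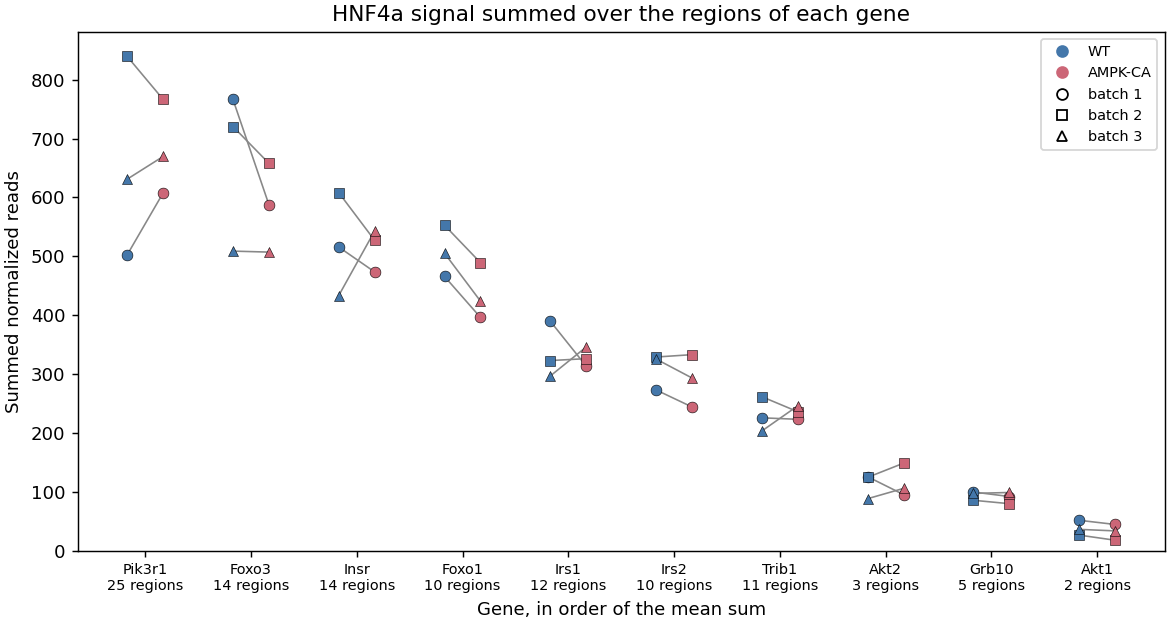
The points are normalized reads summed over all regions of a gene in each library, with WT on the left and AMPK-CA on the right of each gene, and grey lines join the libraries of a batch. For Foxo1 all 3 lines fall from WT to AMPK-CA, from a mean of 508 to 436, and the lines of Akt1 and Foxo3 also fall, the last by under 0.01 log2 units in batch 3. The other 7 genes have lines in both directions.

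The comparison of AMPK-CA with WT asked whether active AMPK goes with a change in HNF4a binding at these genes. In limma's moderated test over all regions, 0 of the 106 had an adjusted p under 0.05, and 0.0% of all regions did. The smallest adjusted p among the 106 was 1.00 without a batch term in limma. With the batch as a block, 0 of the 106 passed in limma and their smallest adjusted p was 0.478, whereas 0.0579% of all regions passed. At an unadjusted limma p under 0.05, 1 region was higher in AMPK-CA, where 1.46% of all regions were, and 1 was lower, where 0.995% of all were. With the block these counts were 4 higher, against a background of 4.11%, and 2 lower, against 3.16%. The edgeR quasi-likelihood test gave 2 regions at an unadjusted p under 0.05, against 2.09% of all regions, and 6 with the block, against 6.54%. DESeq2 gave 1, against 1.51%, and 2 with the block, against 1.95%. After adjustment 0 of the 106 passed in either tool, with or without the block.

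Direction was mixed. Of the 106 regions, 13 were higher in AMPK-CA in all 3 batches, where 13.5% of all regions were, and 12 were lower in all 3, where 14.6% of all were. Both counts were near the background. The 2 genotypes did not overlap at 4 regions: 1 was higher in AMPK-CA, against 4.64% of all regions, and 3 were lower, against 3.27%. The log2 difference, AMPK-CA minus WT on the scale of log2(normalized reads + 1.80), had a median of 0.06 over the 106 regions, or -0.05 without WT replicate 1, and 0.01 over all regions. Over the 106 regions it ran from -0.96 to 1.18. A difference over 1 in size was seen at 2 of the 106 regions, 1.89%, against 3.64% of all regions. The median standard error of these differences was 0.47.

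Insr, which encodes the insulin receptor itself, held the strongest of the 106 regions. It lies in intron 2, 23.1 kb from the start, at chr8:3255974-3257060, and ranked 34 of all 39704 regions. Its values were 175, 233 and 205 normalized reads in WT against 167, 209 and 193 in AMPK-CA, in the order of batches 1 to 3. Within each batch AMPK-CA was slightly below WT, but the genotypes overlapped, and the log2 difference of -0.11 had a 95% interval from -0.54 to 0.33 in limma. Per kb it held 181 normalized reads, the highest of the 106 regions. The 3 regions of other genes on other chromosomes whose values moved most like it over the 6 libraries lay at Itga7, Zfyve26 and Acox2, with root mean square differences of 0.05, 0.05 and 0.05 log2 units after centring. The Insr region over exon 1, 0.5 kb into the gene at chr8:3278101-3280133, had 159, 86.1 and 62.9 normalized reads in WT against 107, 89.3 and 94.5 in AMPK-CA. Batch 1 was lower and batch 3 higher in AMPK-CA there. Another intron 2 region, 57.2 kb in, had 7.34, 21.7 and 10.8 in WT and 13.7, 24.3 and 31.9 in AMPK-CA. It was higher in every batch, with a log2 difference of 0.78 ± 0.48 (SE) and an interval from -0.22 to 1.77. Without WT replicate 1 the difference was 0.47, and over the processing alternatives it ran from 0.45 to 1.16. Of the 14 Insr regions, 11 had a positive log2 difference.

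The receptor's docking proteins differed in how their regions lay. At Irs1, 5 regions within 10 kb of the start included the promoter region at chr1:82290466-82292268, which had 116, 44.9 and 61.1 normalized reads in WT against 56.3, 41.7 and 44.5 in AMPK-CA. AMPK-CA was lower in each batch, most in batch 1 by 1.02 on the log2 scale, and the 2 genotypes overlapped. The limma difference was -0.52 ± 0.34 (SE), with an unadjusted limma p of 0.136, or 0.054 with the batch block. Of the 5 near regions 4 had negative differences, while all 7 regions beyond 10 kb had positive ones, with a median of 0.43 on the log2 scale. Over all regions of the table, 40.0% within 10 kb and 60.5% beyond 10 kb had positive differences. Summed over the 7 distant regions, Irs1 had 88.1, 192 and 124 normalized reads in WT against 155, 201 and 196 in AMPK-CA, and every batch was higher in AMPK-CA. The strongest of them, in intron 1 at chr1:82247430-82248120, had 46.7, 66.6 and 32.4 in WT and 62.0, 68.9 and 59.7 in AMPK-CA. Its genotypes overlapped, and its log2 difference was 0.43 ± 0.32 (SE), or 0.18 without WT replicate 3. The exon 1 region 4.38 kb in went the other way, with 56.0, 26.2 and 37.7 in WT and 35.4, 23.3 and 27.8 in AMPK-CA. An interaction of distance and genotype was not tested.

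Irs2, the docking protein whose liver expression rises in fasting, had its strongest region at chr8:11008666-11010287. It is centred 1.05 kb upstream of the assigned start and annotated to intron 1 of the neighbouring transcript 9530052E02Rik. It covers all 300 bases of the RefSeq promoter window of Irs2. It had 113, 76.4 and 70.1 normalized reads in WT against 70.8, 69.9 and 69.5 in AMPK-CA. Its 3 AMPK-CA values were almost equal, and the within-batch log2 differences were -0.67, -0.13 and -0.01. The intergenic region 140.9 kb upstream had 23.3, 62.9 and 61.1 in WT and 23.3, 34.0 and 43.1 in AMPK-CA, a log2 difference of -0.45 ± 0.39 (SE). Without WT replicate 1 the difference was -0.90, with an unadjusted limma p of 0.0051 and an adjusted p of 0.538. It was -0.21 without WT replicate 2, -0.23 without WT replicate 3 and -0.22 without AMPK-CA replicate 1. The region 12.9 kb upstream had 20.7, 26.2 and 27.0 in WT and 25.8, 32.0 and 31.9 in AMPK-CA, so it was higher in each batch with overlapping genotypes. The weak region 90.1 kb upstream had 12.0, 10.5 and 21.6 in WT and 8.05, 5.82 and 9.72 in AMPK-CA, and all 3 AMPK-CA values lay below the WT values.

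Pik3r1, the regulatory subunit of the lipid kinase, combined a distal array with a start-site region. Its strongest region, 255.6 kb upstream at chr13:102023377-102024281, had 64.0, 139 and 98.9 normalized reads in WT against 105, 103 and 104 in AMPK-CA. AMPK-CA lay inside the WT range. The region 163.2 kb upstream at chr13:101931032-101931723 had 54.7, 85.4 and 44.9 in WT and 66.8, 104 and 87.5 in AMPK-CA, higher in each batch with overlapping genotypes. Its log2 difference was 0.50 ± 0.30 (SE) and its unadjusted p with the block was 0.049 in limma and 0.072 in edgeR. Without WT replicate 3 the difference was 0.30. The region 189.6 kb upstream was weak, with 3.34, 11.2 and 8.99 in WT and 13.7, 31.0 and 13.9 in AMPK-CA. Among the 106 regions, only here did all AMPK-CA values lie above all WT values, and its log2 difference was 1.16 ± 0.53 (SE), with an unadjusted limma p of 0.040 and an adjusted p of 1.00. Without WT replicate 1 it was 0.75. The region 212.2 kb upstream had 16.0, 44.9 and 16.2 in WT and 18.5, 53.4 and 30.6 in AMPK-CA, again higher in each batch with overlap. The exon 1 region, 0.222 kb into the gene at chr13:101767272-101768717, had the opposite order, with 84.7, 38.2 and 28.8 in WT and 49.1, 29.1 and 23.6 in AMPK-CA. Its log2 difference was -0.47 ± 0.40 (SE), and the genotypes overlapped. Over all 25 regions, 14 differences were positive and 11 negative.

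The kinases carried few regions. Akt2 had a single strong one, in intron 1 and 12.6 kb before the assigned start at chr7:27592644-27593781, with 79.7% of the summed signal of the gene. Its values were 95.4, 103 and 71.9 normalized reads in WT against 68.4, 123 and 86.1 in AMPK-CA. Batch 1 was lower and batches 2 and 3 higher, and the log2 difference was 0.02 ± 0.28 (SE). This region lies closer to another RefSeq window of Akt2, chr7:27591302-27591601, than to the assigned start. The region nearest the assigned Akt2 start, 1.07 kb into intron 1, had 23.3, 5.24 and 14.4 in WT and 16.1, 12.6 and 11.1 in AMPK-CA. Akt1 had 22.0, 13.5 and 14.4 in WT and 14.5, 10.7 and 15.3 in AMPK-CA at the promoter region, at chr12:112674799-112675343, which holds the forkhead match printed above. Its intron 2 region had 29.4, 12.7 and 21.6 in WT and 29.8, 6.79 and 18.1 in AMPK-CA. Both Akt1 regions overlapped between genotypes, and their standard errors, 0.46 and 0.50, exceeded their log2 differences of -0.25 and -0.32.

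Foxo1, the forkhead factor through which insulin restrains glucose output by the liver, held the region with the smallest p of the 106 in limma, with or without the block. In edgeR with the block the Pik3r1 region 189.6 kb upstream had a smaller p, 0.0074 against 0.0087. Its exon 1 region at chr3:52267657-52270307 is 2651 bp long, centred 0.645 kb into the gene, and holds the promoter sequence printed in the first line. It had 210.1, 113 and 122 normalized reads in WT against 113, 99.0 and 75.0 in AMPK-CA. Every AMPK-CA value lay below every WT value, by a narrow margin between AMPK-CA replicate 1 and WT replicate 2. The log2 difference was -0.59 ± 0.27 (SE), with an interval from -1.15 to -0.03, an unadjusted limma p of 0.039 and an adjusted p of 1.00. With the batch block the limma p was 0.0061 and the adjusted p 0.478. Without WT replicate 1, the highest library, the difference was -0.31 with a limma p of 0.201, so that library moves its size by more than 1.5 times. Within the batches the differences were -0.89, -0.19 and -0.69.

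The other strong Foxo1 regions lay far downstream. The region 227.1 kb away, at chr3:52494873-52495985, had 70.7, 171 and 126 in WT and 101, 124 and 119 in AMPK-CA, with a log2 difference of -0.01 ± 0.28 (SE). AMPK-CA lay within the WT range there. The 3 regions within 10 kb of the start had summed reads of 226, 162 and 162 in WT and 142, 142 and 122 in AMPK-CA, so all AMPK-CA sums were below all WT sums. Most of each sum came from the exon 1 region, so this repeats the result given for that region. At the regions 2.5 and 3.2 kb into the gene the genotypes overlapped, with log2 differences of -0.01 and 0.40. The sum over all 10 regions was 508 ± 43.6 (SD, n = 3) in WT and 436 ± 47.8 (SD, n = 3) in AMPK-CA, and its log2 ratio was -0.23, -0.18 and -0.25 in batches 1 to 3. The WT and AMPK-CA sums overlapped across batches. Of the 10 regions, 6 had negative and 4 positive differences, and the exon 1 region holds 25.9% of the gene's signal.

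Foxo3, the second FOXO factor, had 11 intronic regions among its 14, and its strongest lay in intron 2, 51.0 kb into the gene at chr10:42225176-42226311. That region had 211, 136 and 98.9 normalized reads in WT against 137, 139 and 106 in AMPK-CA, and only batch 1 was lower in AMPK-CA. A neighbour at 45.7 kb had 88.1, 149 and 93.5 in WT and 72.4, 128 and 79.2 in AMPK-CA, lower in each batch with overlap and a log2 difference of -0.24 ± 0.28 (SE). The promoter region, at chr10:42275895-42277485, had 62.7, 45.7 and 34.2 in WT and 33.8, 15.5 and 34.7 in AMPK-CA. Batches 1 and 2 were lower by 0.86 and 1.45 on the log2 scale and batch 3 differed by 0.02. The overall difference was -0.76 ± 0.38 (SE), with a limma p of 0.059, and 0.016 with the block, where the adjusted p was 0.568. A weak intron 2 region at 25.3 kb had 14.7, 13.5 and 10.8 in WT and 10.5, 5.82 and 2.78 in AMPK-CA, and its genotypes did not overlap. Of the 14 regions, 9 had negative and 5 positive differences, where 50.6% of all regions had positive ones.

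**Figure D3:**
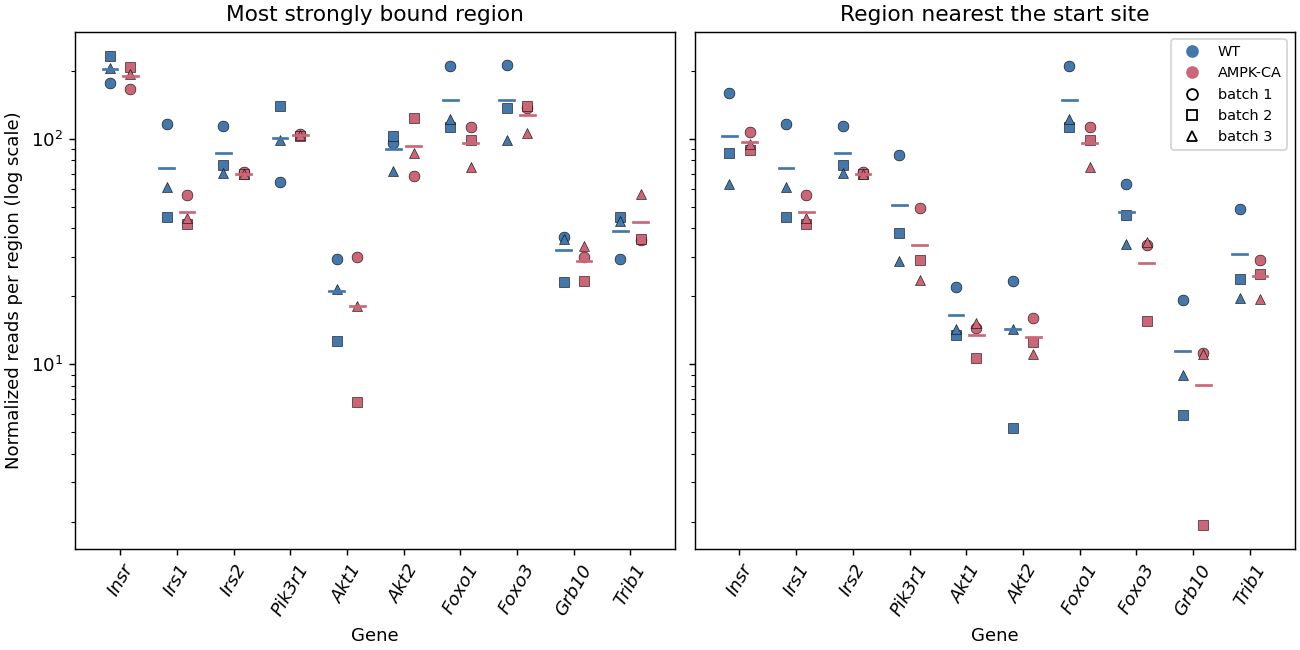
The 2 panels show normalized reads in each library on a log axis for the strongest region of each gene and for the region nearest its start, with horizontal lines at the genotype means. At Irs1, Irs2 and Foxo1 the same region appears in both panels. The Foxo1 values of AMPK-CA, 75.0 to 113, all lie below the WT values, while at most other genes the genotypes interleave.

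Grb10 and Trib1 act outside the main chain. Grb10, which restrains the receptor, had its strongest region in intron 2, 62.5 kb into the gene, with 36.7, 23.2 and 35.9 normalized reads in WT against 29.8, 23.3 and 33.3 in AMPK-CA. The nearest region to its assigned start was 10.7 kb away, but closer to another RefSeq window of Grb10, chr11:12027922-12028221. That region had 19.3, 5.99 and 8.99 in WT and 11.3, 1.94 and 11.1 in AMPK-CA. In both the genotypes overlapped. Trib1 had its strongest region 99.3 kb upstream, within intron 4 of the neighbour Nsmce2, with 29.4, 44.9 and 43.1 in WT and 35.4, 35.9 and 57.0 in AMPK-CA. The Trib1 promoter region, at chr15:59647707-59648955, had 48.7, 24.0 and 19.8 in WT and 29.0, 25.2 and 19.4 in AMPK-CA. Only batch 1 set the genotypes apart there, and the log2 difference was -0.22 ± 0.41 (SE).

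Start-site regions of these genes are given here beside the other start-site regions of the table. Within 1 kb of a start, 7 of the 8 regions were lower in AMPK-CA in batch 1, 87.5%, against 87.6% of all regions at that distance. Their median log2 differences were -0.74 in batch 1, -0.15 in batch 2 and 0.00 in batch 3, against -0.62, -0.07 and -0.09 over all regions within 1 kb. From 1 to 10 kb the medians of the 22 regions were -0.003, -0.09 and -0.004, against 0.04, 0.002 and 0.02. From 10 to 50 kb those of the 35 regions were 0.21, -0.16 and 0.20, against 0.18, 0.01 and 0.04. From 50 to 100 kb those of the 20 regions were 0.24, -0.04 and 0.29, against 0.32, 0.01 and 0.03. Beyond 100 kb the medians of the 21 regions were 0.44, -0.24 and 0.06, against 0.52, -0.04 and 0.04. WT replicate 1 stood apart from the other libraries, with 19.4% of its reads in promoter regions against 11.7% to 14.2% in the others, and it is the WT library of batch 1. Without it, the limma log2 differences of the start-site regions were -0.31 at Foxo1, -0.55 at Foxo3, -0.15 at Irs1, -0.03 at Pik3r1 and -0.05 at Akt1. With it they were -0.59, -0.76, -0.52, -0.47 and -0.25. The Irs2 region is centred 1.05 kb from its assigned start and so is not among the 8, though it covers the RefSeq promoter window of Irs2. It had -0.06 without that library and -0.27 with it. Of the 8 regions within 1 kb, 1 was higher in AMPK-CA in all 3 batches, 12.5%, and 3 were lower, 37.5%. Over all regions at that distance the shares were 2.82% and 26.3%. The region higher throughout lay 0.75 kb into Trib1, with deposited AMPK-CA over WT ratios of 1.04, 1.55 and 2.33. The Insr region within 1 kb had a positive log2 difference with WT replicate 1 included. Differences without that library are not given for the Insr and Trib1 regions within 1 kb. In batches 2 and 3 alone, 29 of the 106 regions were higher in both, against 25.5% of all regions, and 28 lower in both, against 26.6%.

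**Figure D4:**
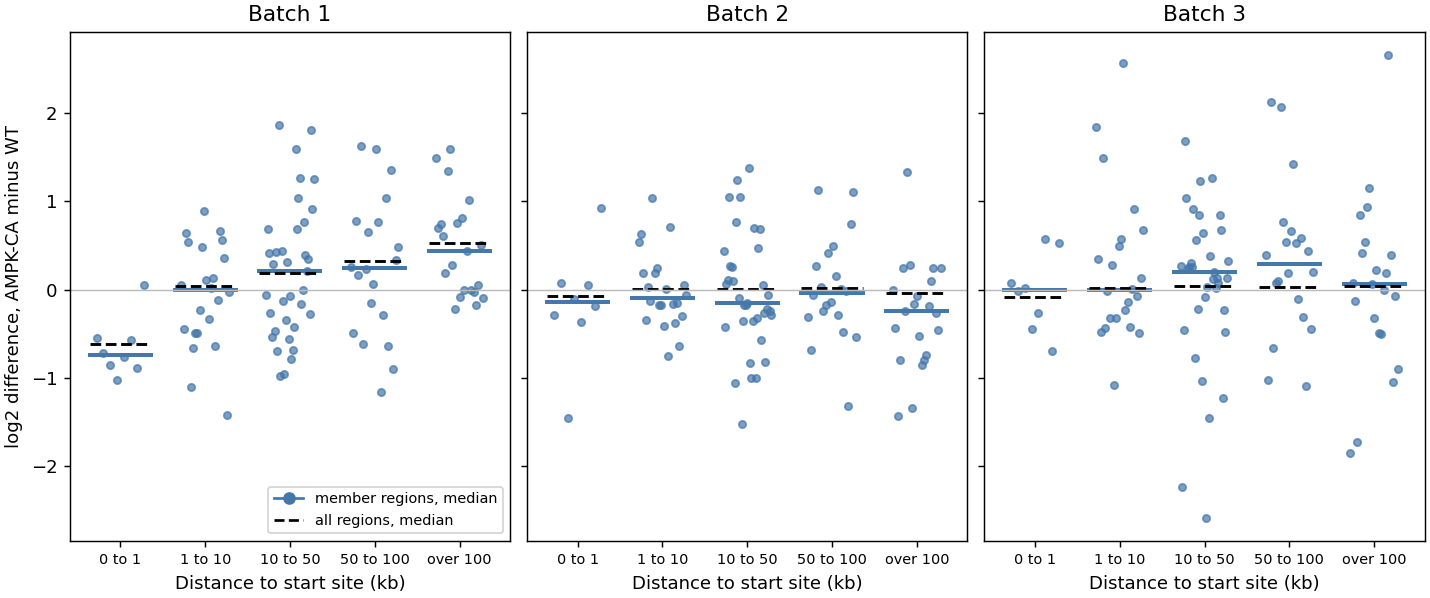
Points are the 106 regions, with the log2 difference of AMPK-CA minus WT within each batch on the y axis and the distance class in kb on the x axis. Solid lines are their medians and dashed lines the medians of all regions: in batch 1 both go from below 0 within 1 kb, -0.74 and -0.62, to above 0 beyond 100 kb, 0.44 and 0.52.

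The wider pathway was examined in the same way. Of 42 further genes of insulin signalling, 35 had regions, 165 in all, and 0 passed in limma in either direction, with or without the block. At an unadjusted limma p under 0.05, 1 of the 165 was higher and 2 were lower in AMPK-CA, and 4 and 6 with the block, where the shares over all regions are the 1.46%, 0.995%, 4.11% and 3.16% given above. The strongest lay at the promoter of Grb7, an adaptor related to Grb10, with 175 ± 58.3 (SD, n = 3) normalized reads in WT against 154 ± 3.04 in AMPK-CA. Of 20 FOXO or insulin-responsive target genes, 19 had regions, 132 in all, with 0 passing in either direction. At an unadjusted limma p under 0.05, 3 were higher and 1 lower, against 1.46% and 0.995% of all regions. With the block 6 were higher and 3 lower, against 4.11% and 3.16%. The strongest were the promoters of G6pc, the glucose-6-phosphatase, with 157 ± 52.1 in WT and 149 ± 37.2 in AMPK-CA, and of Apoc3, an apolipoprotein of triglyceride-rich particles, with 119 ± 14.6 and 119 ± 16.8. The median log2 differences of the 2 lists were -0.05 and 0.02.

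Hepatocyte genes were bound. All 8 hepatocyte marker genes had regions, 66 in all, with summed reads from 1647 to 2470 in WT and 1965 to 2425 in AMPK-CA, and the 3 Kupffer cell markers had none. With the block in limma, 3 of the 66 regions passed, all at Alb, the albumin gene, and all higher in AMPK-CA, with adjusted p-values of 6.62e-11, 0.0012 and 0.030. Regions of the other marker lists passed neither with nor without the block. Markers of cholangiocytes had 4 regions with sums of 60.7 to 98.7 in WT and 68.1 to 71.8 in AMPK-CA, markers of stellate cells had 2 regions with 42.0 to 56.9 and 26.6 to 34.9, and markers of endothelium had 7 with 153 to 234 and 139 to 177. The part of the other cell types in the results was not tested. Reads in regions ran from 536027 to 1622087 per library, which limits the precision of weak regions such as those at Akt1 and Grb10.

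The authors' deposited table gives 3 ratios per region, AMPK-CA over WT by experiment, and a p-value of its own. By the authors' deposited table, 7 of the 106 regions had p under 0.05 with a mean ratio below 1, 6.60%, against 8.71% of all regions, and 1 had it above 1, 0.943% against 3.74%. In the authors' deposited table those below 1 were the Foxo1 exon 1 region, the Foxo3 regions at 25.3 and 45.7 kb, the strongest Insr region, the Irs1 region 4.38 kb in, the Irs2 region 90.1 kb upstream and the Pik3r1 exon 1 region. The Irs2 region 12.9 kb upstream was above 1. The deposited p-values equal, in 100% of the 39358 regions with 3 ratios, within 1e-06, those of an equal-variance comparison of the 3 ratios with 3 values of 1, a set that has no spread. None of these 8 regions passed in limma.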

How the data were processed

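HNF4a ChIP-seq libraries of mouse liver, 3 WT and 3 AMPK-CA, were compared from the authors' deposited table of regions. Per the submitters' processing notes, the tools used include BWA, deepTools, FastQC, HOMER, MACS2, Picard, SAMtools, SICER and Trim Galore, listed with no role or version, and the build is GRCm38, also called mm10. Per the file headers, the deposited signal is a normalized read number per region, and the deposited ratio, log2 ratio, p-value and score columns are the authors' own comparison per region. The sources used here do not give the rule by which regions were selected.

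The deposited signal gave whole reads for 100% of values within 1e-06, 536027 to 1622087 reads per library, so edgeR and DESeq2 could be run on those reads. The main test was limma (3.58.1, trend and robust) on log2(signal + 1.80), 0.1 of the median value, over all 39704 regions in R 4.3.3, with no filter, Benjamini-Hochberg adjustment and a threshold of 0.05. The reads went into the edgeR quasi-likelihood test (4.0.16) and DESeq2 (1.42.0) as alternatives, beside another pseudocount, a filter on low values, equal summed signal, each library or batch left out, and the labelled batch as a block. The labels give same-numbered libraries a shared batch, and their deviations correlated by 0.53, 0.49 and 0.05 in batches 1 to 3. The fit with the block was planned as the alternative to the main fit. The SEs and intervals given come from the fit without the block, which ignores this pairing. No 2 libraries agreed within sampling noise, since the smallest chi-square per degree of freedom over 15 pairs was 1.58. The tests were also run on simulated reads with large changes placed in regions above the median level and with no batch effect. That setting is unlike these libraries, so it does not show how the tests treat small differences here.

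Named regions were, for each gene, the strongest and the nearest to the start, any region passing the threshold, and, in each direction, the 5 with the smallest p among those moving one way in all 3 batches with a mean no lower than the table's median. Regions whose genotypes do not overlap, or that are strong beside these, were named after their values were seen. The genes and lists were chosen with earlier results of these data known. The regions' own sequences were not used here, since no genome was at hand. For each wider gene list the 2 strongest regions were to be named, and 1 of these is not reported here.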

Additional observations from a re-analysis of the deposited data

How the results depend on the processing

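No region of the 10 genes passed the threshold under any of 17 alternatives. Over all regions, where 0 passed without a batch term, the replicate block gave 18 higher and 5 lower in AMPK-CA, edgeR with the block 19 and 5, and DESeq2 with the block 1 higher. Leaving out 1 library, or 1 batch with the block, gave 0 to 15 higher and 0 to 5 lower over all regions. In batches 2 and 3 alone, an alternative chosen after seeing the data, 29 of the 106 regions were higher in both and 28 lower in both, where 25.5% and 26.6% of all regions were. At an unadjusted p under 0.05, limma gave 2 of the 106 regions, against 2.46% of all regions, and 6 with the replicate block, against 7.27%. It gave 6 without WT replicate 1, against 5.88%, 0 without AMPK-CA replicate 2, against 0.922%, and 11 without batch 1 with the block, against 6.84%. Those 11 are 10.4% of the 106, and 3 of them were higher and 8 lower in AMPK-CA. The log2 difference ran over -0.79 to -0.31 at Foxo1 exon 1, 0.74 to 1.46 at the Pik3r1 region 189.6 kb upstream, and -0.90 to -0.21 at the Irs2 region 140.9 kb upstream. No sign turned among the 11 regions followed, which were chosen for moving one way in the batches or for a small p, so that their sign is no sign of stability. The cause of these moves was not tested. With 3 libraries a genotype the median standard error was 0.47 on the log2 scale.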
